A study of Mus musculus with 10 samples.

Results

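The 8 genes described here encode proteins that set, copy, remove or read cytosine methylation in DNA: *Dnmt1*, *Uhrf1*, *Dnmt3a*, *Dnmt3b*, *Tet1*, *Tet2*, *Tet3* and *Mbd2*. They are a list of named genes of this function, chosen with earlier results of these data known, and each symbol matched 1 of the 46983 Ensembl genes that were counted. All 8 were among the 15610 genes kept by the filter on low counts. RNA came from whole right thoracic mammary fat pads of virgin female C57BL/6 mice at PND 130. Each sample thus holds epithelium, fat and the other cells of the pad. For 4 weeks the CFA group had eaten a diet with 1 mg FA/kg and the HFA group one with 5 mg FA/kg. Both groups then ate the same maintenance diet for the 4 weeks before tissue was taken. The groups hold 5 libraries each, 1 per mouse, named here by their sample titles: T1224, T1234, T1314, T1324 and T1334 are CFA, and T2214, T2224, T2234, T2314 and T2334 are HFA. The labels name no engineered allele in either group.

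DNMT1 copies the methylation pattern onto new DNA strands at replication, and UHRF1 brings it to sites that are methylated on only the old strand. DNMT3A and DNMT3B methylate sites anew, and the TET enzymes oxidise methylated cytosine, which starts its removal. MBD2 binds methylated CpG sites and joins them to the NuRD complex, a chromatin remodeller with histone deacetylases. Folate carries the methyl groups that are used, through S-adenosylmethionine, for DNA methylation. In dividing cells the maintenance genes *Dnmt1* and *Uhrf1* are known as targets of E2F transcription factors, which switch on genes of S phase, and adult mammary tissue holds dividing and resting cells side by side.

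Promoter sequence from RefSeq (GRCm38.p6), taken as the 250 bases upstream of each annotated start, was found for 7 of the 8 genes in 12 windows. There was no entry for *Mbd2*. The windows were searched on both strands for 4 forms of the E2F motif, TTTCCCGC, TTTGGCGC, TTTCGCGC and TTTGCCGC, and a window with several or overlapping matches was counted once. A match was present for 2 of the 7 genes, *Dnmt1* and *Uhrf1*, which are the pair that maintains methylation. Over all promoters of the table, 1.86% of 32851 windows and 2.16% of 27025 genes held a match, and the form TTTCGCGC in 0.256% of windows. Both stretches are printed 5′ to 3′ with the match in capitals. A *Dnmt3a* promoter is printed too, which has no match and belongs to the gene whose level varied least between libraries. The coefficient of variation was 67.2% for *Uhrf1* and 32.6% for *Dnmt1*. Among the genes without a match it was 41.9% for *Dnmt3b*, 32.2% for *Tet1*, 29.4% for *Tet3*, 13.7% for *Tet2* and 9.66% for *Dnmt3a*. A relation of the match to the levels was not tested. A match in these letters is a description and not a binding site.
*Uhrf1*, chr17:56304063-56304312, plus strand: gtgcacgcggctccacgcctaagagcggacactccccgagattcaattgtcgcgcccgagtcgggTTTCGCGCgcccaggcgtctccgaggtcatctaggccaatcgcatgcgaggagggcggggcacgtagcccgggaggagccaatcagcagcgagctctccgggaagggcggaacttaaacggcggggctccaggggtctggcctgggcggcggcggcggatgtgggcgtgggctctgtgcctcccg
*Dnmt1*, chr9:20952824-20952853, minus strand: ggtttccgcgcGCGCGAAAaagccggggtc
*Dnmt3a*, chr12:3806730-3806979, plus strand: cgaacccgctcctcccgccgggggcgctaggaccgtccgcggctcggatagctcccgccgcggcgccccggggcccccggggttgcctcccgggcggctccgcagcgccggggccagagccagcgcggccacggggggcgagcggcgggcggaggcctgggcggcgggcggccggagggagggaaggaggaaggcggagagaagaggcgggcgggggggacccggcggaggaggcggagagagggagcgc

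The *Uhrf1* window lies upstream of the downstream start site, in sequence that GENCODE M21 assigns to no *Uhrf1* exon, and its match begins 185 bases before that start. The *Dnmt1* match begins 219 bases before the start site nearest the gene's end and lies in the 5′ UTR of a *Dnmt1* transcript that starts farther upstream, so 30 bases around it are shown. The whole windows with a match are rich in CpG, with 30 CpG sites for *Uhrf1* and 26 for *Dnmt1*, against a median of 6 over all windows. The other windows of these genes held no match, with 10 CpG sites for *Uhrf1* and 7 and 2 for *Dnmt1*. All 4 motif forms hold a CG, so the share over all windows is not that of windows rich in CpG. The *Dnmt3a* window holds 38 CpG sites. The *Tet2* window, with 51, holds the most among the 12.

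Between 7711010 and 14829291 reads per CFA library and between 7672199 and 14336914 per HFA library were counted on genes. The B and T cell markers split the libraries. Their mean lay between −0.39 and 0.27 log2 CPM (reads of a gene scaled to library size) in 7 libraries, and at 4.84 in T1234, 6.16 in T1334 and 7.55 in T2334. Over the 9 B cell markers the summed level was 4.05 to 6.73 CPM in the 7 libraries and 395 to 3050 CPM in the other 3, and over the 10 T cell markers 7.31 to 18.3 CPM against 224 to 1300 CPM. No B or T cell marker was at 0 in all 7 libraries. T2334 stood apart in other ways too, with a median correlation of 0.808 with the rest against 0.928 to 0.975 for the other 9, and with a skeletal muscle marker mean of 6.28 log2 CPM against 9.34 to 12.4. The epithelial markers that define the gland were present in every library, with *Krt19*, a luminal keratin and the most abundant of them, at 82.5 to 438 CPM. Results that rest on these libraries are therefore given with and without them. In bulk tissue, fewer cells of a type and less RNA per cell cannot be told apart.

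Levels were compared between the 8 genes as CPM per kilobase of annotated exon, means over all 10 libraries with the SD between them. *Mbd2* was the highest at 23.2 ± 5.41 and *Dnmt1* followed at 8.02 ± 2.61, each above the next gene in 10 of 10 libraries. *Tet3* at 4.64 ± 1.36 and *Dnmt3a* at 4.13 ± 0.399 were close, with *Tet3* above in 6 of 10 libraries. *Uhrf1* averaged 2.28 ± 1.53 and *Tet2* 1.84 ± 0.252, and *Uhrf1* was above *Tet2* in 6 of 10 libraries only. *Dnmt3b* at 0.672 ± 0.282 and *Tet1* at 0.549 ± 0.177 were the lowest, with *Dnmt3b* above *Tet1* in 8 of 10. The neighbours *Tet3* and *Dnmt3a*, *Uhrf1* and *Tet2*, and *Dnmt3b* and *Tet1* thus differed by less than their spread over libraries. With the length of the longest transcript in place of all exons, *Tet2* (3.38) moved above *Uhrf1* (2.70).

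**Figure D1:**
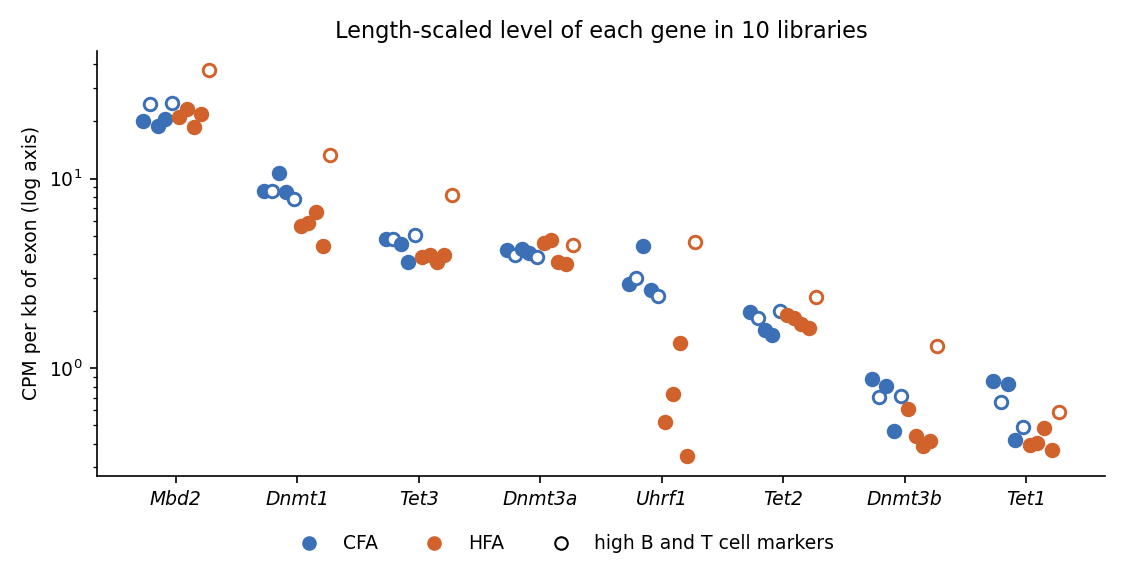
Level of each gene in the 10 libraries, as CPM per kilobase of annotated exon on a log axis, with CFA in blue, HFA in orange and open circles for the 3 libraries high in B and T cell markers. *Mbd2* lies above all other genes in every library, and *Uhrf1* spans the widest range, from 0.343 to 4.63.

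For both genes of the maintenance pair, 4 of the 5 HFA libraries were lower than all CFA libraries. *Uhrf1* (ENSMUSG00000001228, chr17:56303321-56323486, plus strand) was measured in CFA at 11.8 CPM in T1224, 12.7 in T1234, 18.9 in T1314, 11 in T1324 and 10.3 in T1334. In HFA it was at 2.21 CPM in T2214, 3.11 in T2224, 5.82 in T2234, 1.46 in T2314 and 19.7 in T2334. The fifth HFA library, T2334, was above all CFA libraries, so the groups overlapped. The CFA mean was 12.9 ± 3.43 CPM and the HFA mean 6.47 ± 7.6 CPM (SD, n = 5 each), and the highest library had 13.5 times the lowest. Its counts ran from 16 to 310.

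*Dnmt1* (ENSMUSG00000004099, chr9:20907209-20959888, minus strand), the maintenance methyltransferase, ranked the 10 libraries in the same order as *Uhrf1*, over a smaller span. It was at 63.7, 63.8, 79.4, 62.6 and 57.7 CPM in T1224, T1234, T1314, T1324 and T1334. In T2214, T2224, T2234, T2314 and T2334 it was at 41.7, 42.8, 49.2, 32.6 and 97.8 CPM. Again 4 HFA libraries were below all 5 CFA libraries and T2334 above them, with means of 65.4 ± 8.22 and 52.8 ± 25.8 CPM (SD, n = 5 each).

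The *de novo* enzymes differed from each other. *Dnmt3a* (ENSMUSG00000020661, chr12:3806007-3914443, plus strand) was at 69.7, 66.0, 71.0, 67.3 and 64.6 CPM in the CFA libraries in the order above, and at 76.3, 79.1, 60.4, 58.7 and 74.2 CPM in the HFA libraries. It was the steadiest of the 8 genes, with a coefficient of variation of 9.66% over the 10 libraries and HFA values on both sides of all CFA values. *Dnmt3b* (ENSMUSG00000027478, chr2:153649450-153687730, plus strand) was at 4.46, 3.62, 4.10, 2.38 and 3.66 CPM in CFA and at 3.10, 2.24, 1.99, 2.10 and 6.68 CPM in HFA. T2334 was the highest of all, the CFA library T1324 lay among the HFA values, and the counts were low, between 14 and 105. Antisense genes overlap both loci (*Dnmt3aos* and *Dnmt3bos*), as *Gm42567* overlaps *Tet2*. *B230319C09Rik* overlaps *Tet3* on the opposite strand. Reads from shared sequence cannot be told apart because the library kit does not mark strand, and reads that were ambiguous between genes were left out of the counts.

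Among the TET enzymes, *Tet1* (ENSMUSG00000047146, chr10:62804570-62908996, minus strand) was at 13.2, 10.3, 12.7, 6.50 and 7.61 CPM in CFA and at 6.09, 6.21, 7.52, 5.76 and 9.04 CPM in HFA. The 3 highest libraries were CFA, while T1324 and T1334 lay within the HFA range. *Tet2* (ENSMUSG00000040943, chr3:133463679-133545139, minus strand) was at 33.2, 31.2, 27.0, 25.2 and 34.0 CPM in CFA and at 32.2, 30.9, 28.8, 27.6 and 40.0 CPM in HFA. *Tet3* (ENSMUSG00000034832, chr6:83362373-83459084, minus strand) was at 79.7, 80.0, 75.2, 61.0 and 84.0 CPM in CFA and at 64.4, 66.1, 60.3, 65.9 and 137 CPM in HFA. The diet groups overlapped for *Tet2*, with T2334 the highest library. For *Tet3*, T2334 was far above the rest, and the other 4 HFA libraries lay within 60.3 to 66.1 CPM.

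*Mbd2* (ENSMUSG00000024513, chr18:70568189-70626131, plus strand), the reader, was at 64.7, 79.9, 60.7, 66.3 and 80.1 CPM in CFA. In HFA it was at 67.8, 75, 60.0, 70.4 and 120 CPM. T2334 was the highest, T1334 and T1234 came next, and these are the 3 libraries high in B and T cell markers. The part of those cells in the *Mbd2* level was not tested.

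**Figure D2:**
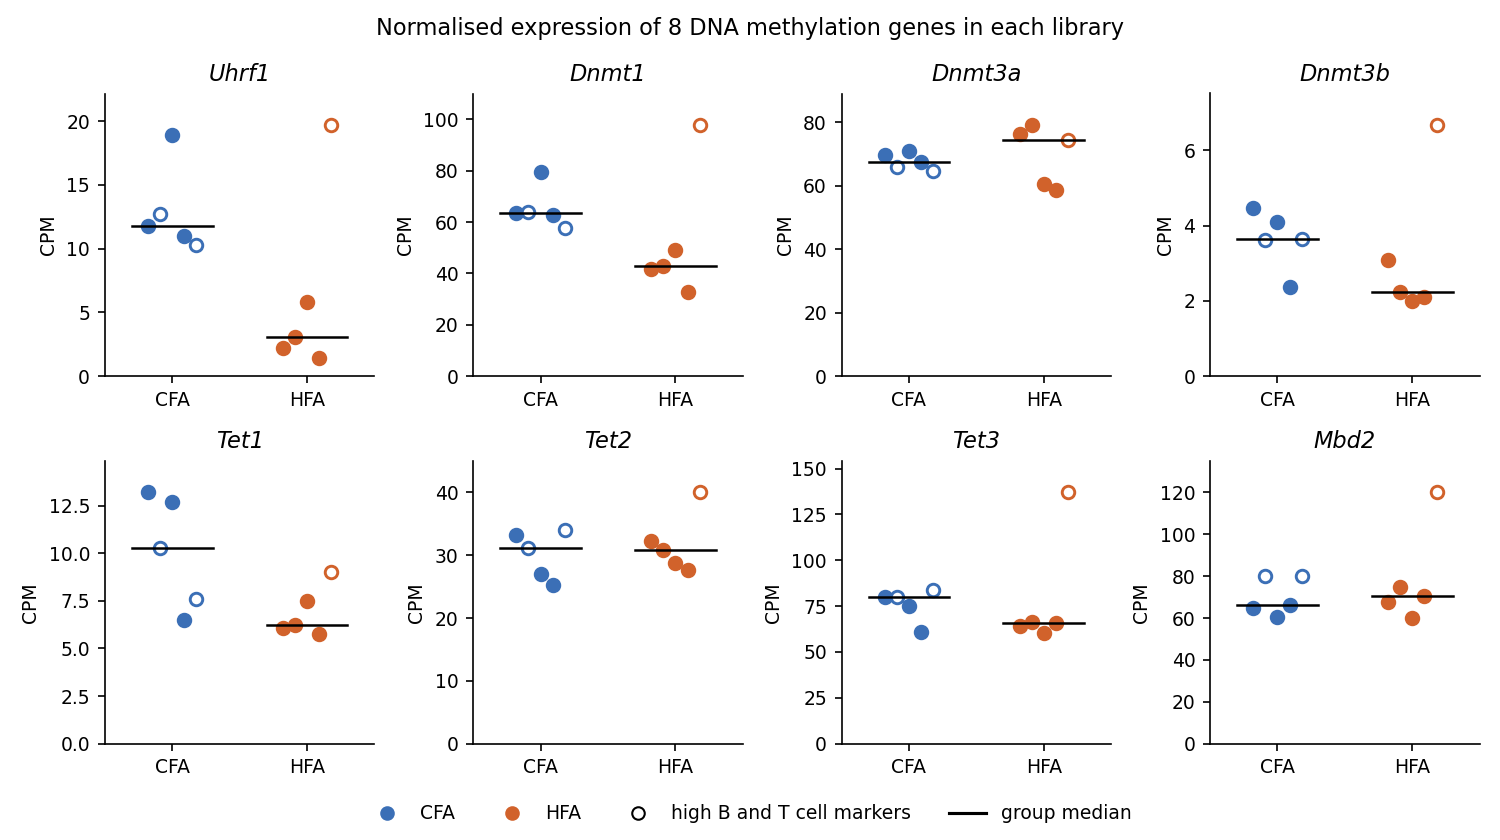
Normalised expression (CPM) of the 8 genes in each library, with CFA in blue, HFA in orange, open circles for the 3 libraries high in B and T cell markers and bars for group medians. For *Uhrf1* and *Dnmt1* the 4 filled HFA points lie below all CFA points, and the open HFA point, T2334, is the highest library for 6 of the 8 genes, the exceptions being *Dnmt3a* and *Tet1*.

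With all 10 libraries, none of the 8 genes passed the quasi-likelihood test of edgeR, adjusted over 15610 genes by the Benjamini-Hochberg method, where the share of all genes called was 0%. None passed the likelihood ratio test, DESeq2 or limma voom either. *Tet1* was the 1 member at an unadjusted p below 0.05, against 7.36% of all genes tested and 3.49% that were, like it, lower in HFA. Its log2 fold change, HFA against CFA, was −0.54 ± 0.24 (SE), with an edgeR unadjusted p of 0.0445 and an adjusted p of 0.67, and means of 10.1 ± 2.97 and 6.92 ± 1.36 CPM. For *Uhrf1* the log2 fold change was −0.98 ± 0.62 and for *Dnmt1* −0.31 ± 0.27, with edgeR adjusted p of 0.741 and 0.802. The other 5 lay between −0.16 ± 0.36 for *Dnmt3b* and 0.16 ± 0.19 for *Mbd2*, and the adjusted p of all 8 ranged from 0.67 to 0.961. No member had groups without overlap, against 0.993% of all genes. T2334 was the highest of the 10 libraries for *Uhrf1*, *Dnmt1*, *Dnmt3b*, *Tet2*, *Tet3* and *Mbd2*. With limma voom's quality weights, which give libraries that stand apart less weight, *Uhrf1* (−2.15, adjusted p 0.0308) and *Dnmt1* (−0.63, adjusted p 0.0359) passed, 2 of 8 beside 6.64% of all genes.

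Without the 3 libraries high in B and T cell markers, a choice made after their values were seen, 3 CFA and 4 HFA libraries remained. In these, the CFA mean of *Uhrf1* was 13.9 ± 4.32 CPM and the HFA mean 3.15 ± 1.9 CPM (SD, n = 3 and 4), a ratio of 4.41. For *Dnmt1* the CFA mean was 68.6 ± 9.44 CPM and the HFA mean 41.6 ± 6.83 CPM, a ratio of 1.65. Both fell in edgeR's quasi-likelihood test, by a log2 fold change of −2.18 ± 0.41 (adjusted p 0.0428) for *Uhrf1* and of −0.72 ± 0.16 (adjusted p 0.0485) for *Dnmt1*. The groups did not overlap for either gene, whereas 2.98% of the 15759 genes tested passed in either direction, 1.8% passed lower in HFA, 20.4% had groups without overlap and 10.6% were lower without overlap. At an unadjusted p below 0.05 were 3 of the 8 members, *Tet1* being the third and all lower in HFA, against 23.4% of all genes and 11.5% lower. These 2 of 8 members were also called by the likelihood ratio test, DESeq2 and limma voom in the same 7 libraries.

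Both calls were lost when most single libraries of the 7 were left out, as were nearly all calls among all genes. When each of the 7 was left out, the log2 fold change of *Uhrf1* ran from −2.62 to −1.89 and that of *Dnmt1* from −0.82 to −0.61, with edgeR adjusted p of 0.0238 to 0.206 and of 0.0401 to 0.235. Both passed only without the CFA library T1324, where *Tet1* passed as well (−1.02, adjusted p 0.0183) and 1236 of 16029 genes were called. None of the 8 passed without any other of the 7, where 0 to 7 of all genes were called. In these 7 fits the edgeR unadjusted p ran from 6.98e-05 to 0.00322 for *Uhrf1* and from 0.000862 to 0.00761 for *Dnmt1*. With only T2334 left out, *Uhrf1* was at −2.10 (edgeR adjusted p 0.0575) and *Dnmt1* at −0.70 (adjusted p 0.0646), and 0.0381% of all genes passed.

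Among the remaining members in the 7 libraries, *Tet1* was at −0.76 ± 0.26 (edgeR adjusted p 0.125) and *Dnmt3b* at −0.63 ± 0.30 (adjusted p 0.246). *Tet3* was at −0.17 ± 0.11, *Dnmt3a* at −0.015 ± 0.13, *Tet2* at 0.068 ± 0.13 and *Mbd2* at 0.094 ± 0.10, with edgeR adjusted p from 0.41 to 0.962. Their groups overlapped. The sign for *Tet3* and *Dnmt3a* was opposite to that in all 10 libraries.

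**Figure D3:**
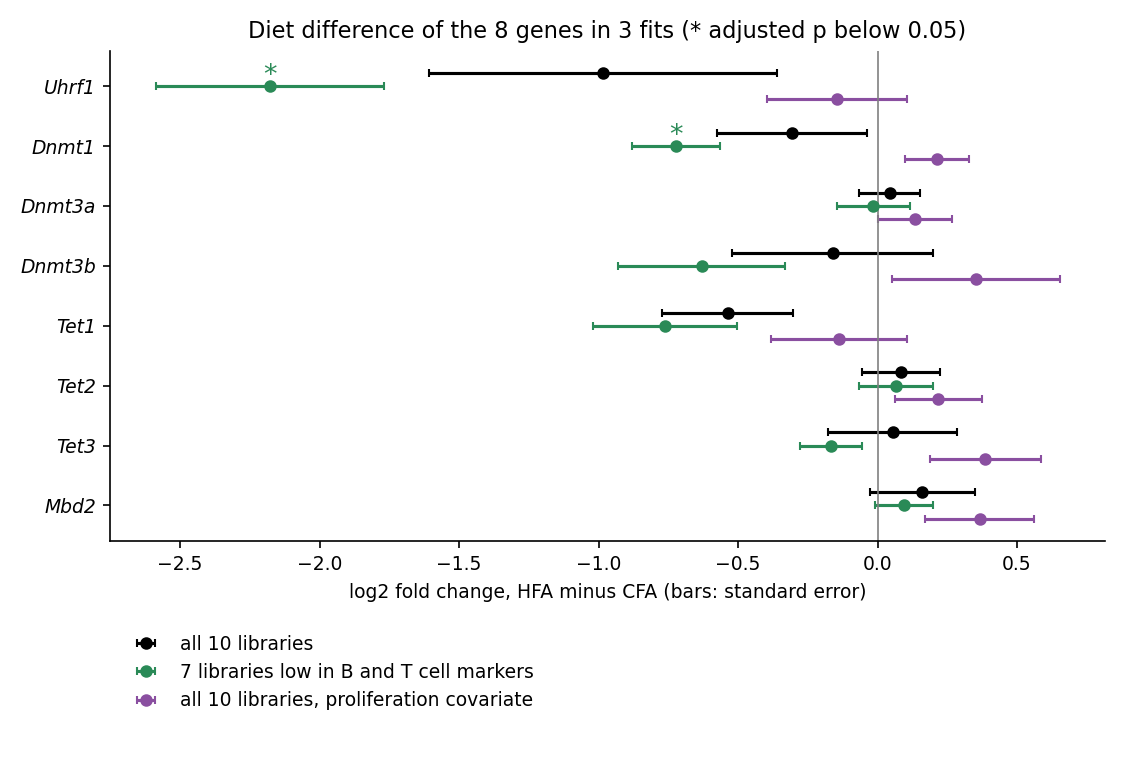
Log2 fold change (HFA against CFA) of the 8 genes with standard errors, for all 10 libraries (black), the 7 libraries low in B and T cell markers (green) and all 10 libraries with the proliferation mean as a covariate (purple). *Uhrf1* and *Dnmt1* are marked by asterisks in green at −2.18 and −0.72 and lie at −0.15 and 0.21 in purple. The covariate was measured in the same libraries as the genes, so the purple fit cannot separate diet from cell division.

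The second digit of the sample titles, whose meaning the sources used here do not give, is 2 in 5 libraries and 3 in the other 5. Within digit 2 (2 CFA, 3 HFA) the mean difference in log2 CPM was −1.79 for *Uhrf1*, −0.52 for *Dnmt1* and −0.81 for *Tet1*. Within digit 3 (3 CFA, 2 HFA, T2334 among them) it was −1.20, −0.22 and −0.24, so the means of these 3 genes were lower in HFA in both subsets. In digit 3 the sign rested on T2314, at 1.46, 32.6 and 5.76 CPM, below every CFA library there. T2334, at 19.7 and 97.8 CPM, was above every CFA library for *Uhrf1* and *Dnmt1*, and at 9.04 CPM within their range for *Tet1*. *Dnmt3a*, *Dnmt3b*, *Tet2*, *Tet3* and *Mbd2* had opposite signs in the subsets. The difference between subsets was not past the threshold for any member, with unadjusted p for the interaction of 0.0751 to 0.659 by edgeR, nor for any other gene, with 1320 genes at an unadjusted p below 0.05.

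Genes of cell division moved with *Uhrf1* and *Dnmt1*. The mean of 30 proliferation genes was 3.56, 3.53, 4.02, 3.20 and 2.83 log2 CPM in T1224, T1234, T1314, T1324 and T1334. In T2214, T2224, T2234, T2314 and T2334 it was 1.94, 2.18, 2.45, 1.26 and 3.85. T2314 was thus lowest and T1314 and T2334 highest, and this order was that of *Uhrf1* and *Dnmt1* except that T2334 and T1314 changed places, as did T1224 and T1234. In the 7 libraries 15 of the 30 were called lower in HFA and 0 higher, the median log2 fold change was −1.78, and 27 of the 30 were lower without overlap, while with all 10 libraries 0 were called and the median was −0.81. *Mki67*, a marker of cycling cells and the most abundant of the list, ran from 28.1 to 112 CPM in CFA and from 4.21 to 72.8 CPM in HFA.

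Subtracting the proliferation mean from the log2 CPM of each gene in each library gave overlapping diet groups for *Uhrf1*, with 0.024 to 0.562 in CFA and −0.69 to 0.465 in HFA. T2214, T2314 and T2224, at −0.69, −0.55 and −0.47, stayed below every CFA library. For *Dnmt1* it gave 2.29 to 3.03 in CFA and 2.77 to 3.78 in HFA. In the 7 libraries the proliferation mean itself was 3.20 to 4.02 in CFA and 1.26 to 2.45 in HFA. Subtracting that mean raises HFA against CFA there for any gene. The steady *Dnmt3a* came to 2.13 to 3.19 in CFA and 2.37 to 4.62 in HFA after subtraction of the mean. With the proliferation mean as a covariate over all 10 libraries, the log2 fold change of *Uhrf1* was −0.15 ± 0.25 (edgeR adjusted p 0.809). That of *Dnmt1* was 0.21 ± 0.11 (adjusted p 0.552). In the 7 libraries, where the proliferation means of the diet groups did not overlap, *Uhrf1* was at −0.055 ± 0.52 and *Dnmt1* at 0.058 ± 0.21, and 0 members passed, as did 0 of all genes, with 5.56% of genes at an unadjusted p below 0.05. The proliferation mean comes from the same libraries, includes *Mcm5* and orders them almost as *Uhrf1* and *Dnmt1* do. Fits with it therefore cannot separate diet from cell division. The part of cell division in the *Uhrf1* and *Dnmt1* differences was not tested.

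**Figure D4:**
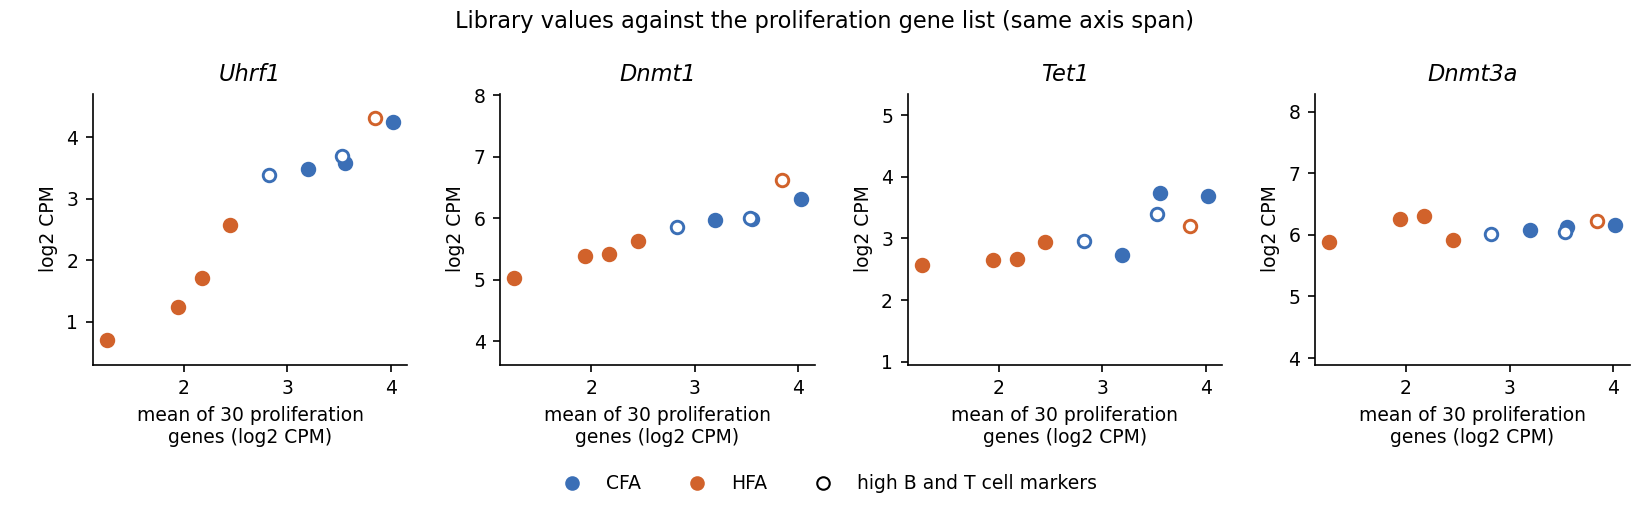
Log2 CPM of *Uhrf1*, *Dnmt1*, *Tet1* and *Dnmt3a* against the mean log2 CPM of 30 proliferation genes in the same library, with equal axis spans in all panels, CFA in blue, HFA in orange and open circles for libraries high in B and T cell markers. For *Uhrf1* and *Dnmt1* the points are higher toward the right, from T2314 at 1.26 to T1314 at 4.02 on the x axis, and for *Dnmt3a* they form a level band.

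Besides proliferation, the means of 2 other marker lists differed between the diets without overlap in the 7 libraries. These were the skeletal muscle markers (10.80 to 11.67 log2 CPM in CFA, 12.09 to 12.43 in HFA) and the Schwann cell markers (3.46 to 3.72 and 4.31 to 4.86). Their summed levels were 17200 to 32900 CPM against 41300 to 54100 CPM over 7 muscle markers, of which 1 was called higher. Over 5 Schwann cell markers the sums overlapped, at 129 to 169 CPM against 167 to 262 CPM. Of these 5, 4 were called higher and 1 lower. The 1 called lower was *Sox10*, the most abundant of the 5, at −0.92 (edgeR adjusted p 0.0469). Of the 10 epithelial markers, 3 were called lower and 0 higher, with summed levels of 1380 to 1840 CPM in CFA and 1060 to 1710 CPM in HFA. No marker of these lists was at 0 across the 7 libraries. The part of such differences in the levels of the 8 genes was not tested.

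Over 70 other genes of the pathway that could be tested, 0 passed edgeR's quasi-likelihood test with all 10 libraries, 1 (*Gadd45g*) passed the likelihood ratio test and DESeq2, and 11 passed limma voom with quality weights. Of all 15610 genes, these tools called 0, 33, 60 and 1037 (6.64%). Among the 8 partners of maintenance methylation, 2 were at an unadjusted p below 0.05, both lower in HFA, against 3.49% of all genes. The list's median log2 fold change was −0.435 against 0.064 over all genes. *Cdca7*, which with the remodeller HELLS opens chromatin for methylation, was at −1.25 ± 0.41 (edgeR unadjusted p 0.0111, adjusted p 0.655) and its relative *Cdca7l* at −0.91 ± 0.26 (unadjusted p 0.00552, adjusted p 0.648). *Usp7*, a deubiquitinase that binds DNMT1 and UHRF1 and the most abundant of the list, was at 0.135 ± 0.175. In the 7 libraries 5 of 8 were called lower and 0 higher, where 1.8% of all genes were called lower. The list's median was −0.85 against 0.008 over all genes. All 5 passed as well without T1324, where 1236 of all genes were called. Without T2234, where 7 were called, only *Cdca7* passed, and without any other of the 7 none of the 8 did. With the proliferation mean as a covariate in the 7 libraries, 0 of the 70 passed, as did 0 of all genes.

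These 5 were *Hells* (log2 fold change −2.30, edgeR adjusted p 0.0428), *Cdca7* (−1.79, 0.0438), *Cdca7l* (−1.11, 0.0428), the replicative ligase *Lig1* (−1.08, 0.0422) and the replication clamp *Pcna* (−0.63, 0.0428). *Hells* was at 9.13, 15.9 and 10.5 CPM in T1224, T1314 and T1324 and at 2.44, 3.28, 2.84 and 1.10 CPM in T2214, T2224, T2234 and T2314. In the libraries left out it was at 10.5 CPM in T1234, 8.06 in T1334 and 22.9 in T2334. So *Hells*, like *Uhrf1*, was highest in T2334. *Hells*, *Lig1* and *Pcna* were named after their values were seen, and *Lig1* and *Pcna* serve DNA replication in dividing cells as well as the copying of methylation.

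*Dnmt3l*, the catalytically inactive partner of the *de novo* enzymes, had few reads, between 2 and 91 per library. It was at 1.17, 1.76, 5.92, 1.66 and 2.69 CPM in CFA and at 2.55, 0.604, 0.284, 0.457 and 0.255 CPM in HFA. The log2 fold change was −1.70 ± 0.69 (edgeR unadjusted p 0.0319, adjusted p 0.656), with T2214 within the CFA range.

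The readers and the NuRD complex, in which MBD2 works, gave no call in edgeR's quasi-likelihood test, in all 10 libraries or in the 7. Of the 9 methyl-CpG readers 2 were at an unadjusted p below 0.05 in each set of libraries, against 7.36% and 23.4% of all genes. Their median was 0.14 in all 10 libraries and 0.13 in the 7. With quality weights in all 10 libraries, limma voom called 1 reader, *Zbtb38*, named after its values were seen, beside 6.64% of all genes. *Zbtb4*, a zinc finger reader and the most abundant of them, was at 0.375 ± 0.13 (edgeR unadjusted p 0.0152, adjusted p 0.655). Of the 12 NuRD subunits 0 passed, adjusted or unadjusted, in either set of libraries, with medians of 0.055 and −0.056, and *Chd4*, its ATPase and most abundant subunit, was at 0.15 ± 0.12. Of the 7 TET cofactors and partners tested 0 passed the quasi-likelihood test in either set, with medians of −0.024 and −0.071. None was at an unadjusted p below 0.05 in all 10 libraries and 1 was in the 7, *Idh2*, a mitochondrial isocitrate dehydrogenase that makes the TET cosubstrate 2-oxoglutarate. It was at 0.68 ± 0.18 there (edgeR adjusted p 0.0767), higher in HFA without overlap, and the likelihood ratio test and DESeq2 called it in the 7 libraries. *Idh2* was named after its values were seen. *Ogt*, the glycosyltransferase bound by TET proteins and the most abundant, was at −0.024 ± 0.18.

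Among 12 genes of base excision and demethylation, 0 passed in all 10 libraries and 2 were at an unadjusted p below 0.05, against 7.36% of all genes. *Gadd45g*, a stress-response gene linked to active demethylation, was at 13.4, 15.7, 9.49, 10.7 and 16.6 CPM in CFA and at 44.9, 38.6, 40.0, 38.5 and 21.0 CPM in HFA. All HFA libraries were above all CFA libraries, with a log2 fold change of 1.475 ± 0.23 (edgeR unadjusted p 6.74e-05, adjusted p 0.376). It passed by the likelihood ratio test and DESeq2, and in the 7 libraries by the quasi-likelihood test (1.85 ± 0.15, adjusted p 0.0118). That call was lost without T1314 and without T2214, where 0 of all genes were called.

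*Neil3*, a DNA glycosylase of dividing cells, was at 4.33, 3.07, 5.33, 2.53 and 1.49 CPM in CFA and at 0.332, 1.12, 0.284, 0.0914 and 2.55 CPM in HFA. Its log2 fold change was −1.84 ± 0.68 in all 10 libraries (edgeR unadjusted p 0.0222, adjusted p 0.655), and it fell in the 7 libraries (−3.06 ± 0.59, adjusted p 0.0428) on counts of 1 to 13 in HFA. Of the 7 single libraries left out in turn, it passed only without T1324, where 1236 of all genes were called. *Parp1*, which binds DNA breaks and was the most abundant of the list, was at 0.18 ± 0.22. The list's medians were −0.012 and −0.022.

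Genes whose silencing depends on methylation gave no call in edgeR's quasi-likelihood test, in all 10 libraries or in the 7. Of 10 germline genes only *Sycp3* had enough reads to be tested, at −0.32 ± 0.24 (edgeR adjusted p 0.773), and the other 9 had at most 11 counts in any library. Of 20 imprinted genes 0 passed that test in either set, with medians of 0.021 and 0.028. At an unadjusted p below 0.05 were 1 and 5 of the 20, against 7.36% and 23.4% of all genes. Other tools called 4 of them, *Igf2r* and *Nap1l5* by limma voom with quality weights in all 10 libraries, and in the 7 *H19* by the likelihood ratio test and *H19* and *Plagl1* by DESeq2. Of all genes, quality weights called 6.64%, and in the 7 libraries the likelihood ratio test called 1589 and DESeq2 1721 of 15759. *Igf2r* and *Plagl1* were named after their values were seen. *Nap1l5*, the 1 of the 20 at an unadjusted p below 0.05 in all 10 libraries, was at 0.81 ± 0.33 (edgeR unadjusted p 0.0313, adjusted p 0.656). *H19*, the most abundant, was at 0.85 ± 0.74 (adjusted p 0.8), with 100 to 353 CPM in CFA, 421 to 599 CPM in 4 HFA libraries and 10.2 CPM in T2334. In the 7 libraries it was at 1.045 ± 0.25 (adjusted p 0.0606) and passed the quasi-likelihood test without T1324, where 1236 of all genes were called. The skeletal muscle marker mean was 6.28 log2 CPM in T2334 and 9.34 in T1234, the libraries lowest in *H19*. It was 12.09 to 12.43 in the 4 HFA libraries highest in *H19*. The orders were not the same throughout, with *H19* at 300 CPM in T1334 (muscle mean 11.98) and 353 CPM in T1324 (11.67). The part of muscle in the *H19* level was not tested.

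**Figure D5:**
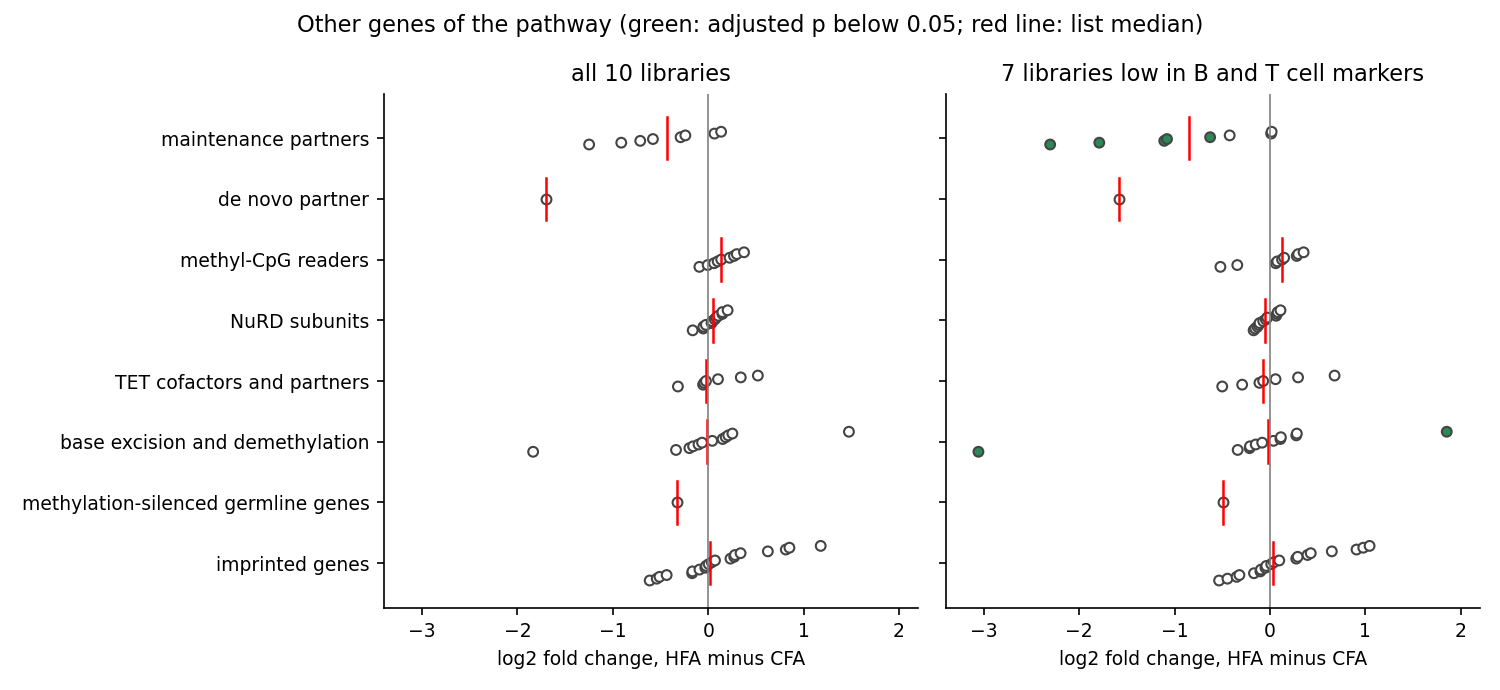
Log2 fold changes (HFA against CFA) of the other genes of the pathway by list, for all 10 libraries (left) and for the 7 libraries low in B and T cell markers (right), with filled green circles for an adjusted p below 0.05 and red lines for list medians. Filled circles appear on the right only, 5 among the maintenance partners and 2 in base excision and demethylation.

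Across the 10 libraries, the genes with the pattern most like each member were found by the root mean square difference of centred log2 CPM among 15558 genes. *Uhrf1* was nearest to *Mcm5* (0.28), a subunit of the replicative helicase and a member of the proliferation list, then to *Ercc6l* (0.30) and the kinesin *Kif22* (0.31), and 0 genes lay within 0.2. *Dnmt1* was nearest to *Mtbp* (0.12), the tubulin *Tubb5* (0.13) and *Rbl1* (0.16), a relative of the retinoblastoma gene, with 46 genes within 0.2. *Tet1* was nearest to the histone methyltransferase gene *Nsd2* (0.16), *Pigf* (0.17) and *Zfp760* (0.18), with 7 genes within 0.2.

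*Dnmt3b* was nearest to *Tank* (0.12), *Trp53* (0.14) and *AU041133* (0.17), with 16 genes within 0.2. The steadier members had many near neighbours, 1470 within 0.2 for *Dnmt3a*, 1602 for *Tet2*, 1094 for *Tet3* and 1212 for *Mbd2*. The nearest were *Prdm4*, *Rars* and *Rc3h1* for *Dnmt3a*, *Zscan26*, *Mapk8ip3* and *Cramp1l* for *Tet2*, *Rbm25*, *Ddx5* and *Wtap* for *Tet3*, and *Secisbp2*, *Ap5z1* and *Rap1a* for *Mbd2*, at 0.052 to 0.083. A small distance is easily reached by a gene that varies little.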

How the data were processed

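Total RNA libraries (Illumina TruSeq RNA v2, not strand-marked) were read as 75 bp pairs. Per the labels and methods, the authors aligned reads to mm10 with TopHat2 2.0.14 and Bowtie2 2.2.5 and deposited unnormalized HTSeq 0.6.1 counts per Ensembl gene. Whether counting used strand is not given in the sources used here. Multiply aligned reads (28.8% to 33.9% of counted lines), reads on no gene (3.43% to 5.47%) and ambiguous reads (3.52% to 4.29%) were left out. Symbols, positions and exon lengths came from GENCODE M21 for 46488 of 46983 genes.

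CPM are counts scaled to TMM library sizes. Diets were compared in R 4.3.3 with edgeR 4.0.16 (filterByExpr, TMM, quasi-likelihood test, diet as the only term since cage is not in the labels), Benjamini-Hochberg adjusted over all genes at 0.05. SE is the log2 fold change over the root of F, and the common biological coefficient of variation was 0.409. Log2 CPM used a prior count of 2. Libraries with a B and T cell marker mean under 2.5 log2 CPM were called low. The p-values measure the spread between mice, which are taken as independent. The study had cage in its model, and a cage difference could not be separated here. The counts carry no molecular identifiers.

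As alternatives, scaling by upper quartile or RLE, no filter or one of CPM above 1 in 5 libraries, the likelihood ratio test, DESeq2 1.42.0, limma 3.58.1 voom without and with quality weights, title digits as a term or block, marker and proliferation covariates, and the loss of each library were tried. Those on the 7 libraries were added after their values were seen. Scripts were tested on simulated data.

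The members and lists were chosen with earlier results of these data known. Named are the 8 members, for each list its most abundant gene and up to 3 genes with an unadjusted p below 0.05, for each member the 3 nearest genes, and for marker lists used the most abundant marker. 1 gene that this rule selects is not reported here. *Hells*, *Lig1*, *Pcna*, *Zbtb38*, *Idh2*, *Igf2r* and *Plagl1* were named after their values were seen.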

Additional observations from a re-analysis of the deposited data

Results flagged for a closer look

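Of 50 groups of 5 libraries checked for a value far from the other 4 (the 8 members and 17 pathway genes in each diet), 6 were flagged. About 1 in 20 is by chance for independent groups, but these groups share the same 10 libraries, so that rate is no yardstick here. All 6 are values of the HFA library T2334, which is also high in B and T cell markers and low in skeletal muscle markers, and the part of those cells was not tested. Among the members it was *Tet3*, at 137 CPM against 60.3 to 66.1 CPM in the other 4 HFA libraries. Of the maintenance partners, 3 were higher there, *Pcna* at 34.4 CPM against 13.1 to 14.2, *Usp7* at 203 CPM against 114 to 120 and *Lig1* at 26.1 CPM against 9.69 to 11.4. *Pcna*, *Lig1* and the unflagged *Hells* were checked because they were called in the 7 libraries that leave T2334 out. That choice favoured a flag of T2334 for them. *Gadd45g* was lower there at 21.0 CPM against 38.5 to 44.9, and *H19* at 10.2 CPM against 421 to 599.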

How the results depend on the processing

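The number of members called was 0 in all 10 libraries, 2 by limma voom with quality weights, and 2 in the 7 libraries low in B and T cell markers by the quasi-likelihood test, the likelihood ratio test (2), DESeq2 (2) and limma voom (2). With libraries left out it was 0 to 3. The number of all genes called was 33 by the likelihood ratio test, 60 by DESeq2, 1037 with quality weights and 2 (*Id4* and *Gm43085*, named after their values were seen) with the covariate of B and T cell markers, and in the 7 libraries 469, 1589, 1721 and 470 by the quasi-likelihood test, the likelihood ratio test, DESeq2 and limma voom. With libraries left out it was 0 to 1236, with 6 without T2334 and the highest number without T1324 in the 7 libraries. Of the other pathway genes, 1, 1 and 11 were called by the likelihood ratio test, DESeq2 and quality weights, and 7, 9, 10 and 7 in the 7 libraries, with 0 to 8 when libraries were left out. The cause of these changes was not tested.

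Signs were reversed as follows (log2 fold change). *Dnmt1* was at 0.215 with the proliferation covariate and 0.058 with it in the 7 libraries, *Dnmt3b* at 0.352 with it, and *Tet1* at 0.142 and *Mbd2* at −0.076 with it in the 7 libraries. *Dnmt3a* was at −0.021 under upper-quartile scaling, −0.023 without filter and −0.004 with the replicate block, and in the 7 libraries at −0.015, −0.015, −0.01 and −0.027 by the 4 tools in the order above. *Tet3* was at −0.023, −0.025 and −0.041 under the same 3 settings, −0.023 by voom, −0.215 with quality weights, and in the 7 libraries −0.167, −0.167, −0.161 and −0.156 by the 4 tools and −0.054 with the proliferation covariate. With libraries left out, *Dnmt1* ran from −0.82 to −0.18, *Uhrf1* from −2.62 to −0.73, *Dnmt3a* from −0.097 to 0.099, *Dnmt3b* from −0.86 to −0.037, *Tet1* from −1.02 to −0.47, *Tet2* from −0.053 to 0.186, *Tet3* from −0.286 to 0.136 and *Mbd2* from −0.084 to 0.243. Upper-quartile scaling moved the median of all genes from 0.064 to −0.002, under 0.1. The alternatives not named in this paragraph kept the sign of all 8 members.

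Lengths of the longest transcript gave *Mbd2* 38.1, *Tet3* 7.1, *Dnmt3a* 7.1 and *Tet2* 3.38 CPM per kilobase, and 23 of the 24 nearest genes were shared with a prior count of 0.5. A replicate block by the later title digits called 0 members and 0 genes, with 1074 at an unadjusted p below 0.05 against 1149 without it and *Uhrf1* at −1.41. Same-numbered libraries correlated at 0.298, −0.294, 0.111 and 0.41 in their deviations from the group means. As 1 of these 4 was not above 0.1 and the sources used here do not give what the digits mean, the numbers were not taken to pair the libraries. The 16 to 310 counts of *Uhrf1* and 14 to 105 of *Dnmt3b* limit their precision.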
